A study of Mus musculus with 8 samples.

Results

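The 10 genes described here encode regulators that set how many mitochondria a heart cell makes and which fuel it burns: the coactivators PGC-1 alpha and PGC-1 beta (Ppargc1a, Ppargc1b), the estrogen-related receptors ERR alpha, beta and gamma (Esrra, Esrrb, Esrrg), the fatty acid receptors PPAR alpha and PPAR delta (Ppara, Ppard), the nuclear respiratory factors NRF-1 and GABP alpha (Nrf1, Gabpa), and the mitochondrial DNA factor TFAM (Tfam). They were taken by gene symbol from a table of 22518 genes, in which all 10 were found. RNA was sequenced from whole hearts of C57BL/6 mice at postnatal day 12, with 4 libraries from wild type mice and 4 from littermates in which endothelial cells lack 2 prolyl hydroxylases, PHD2 (gene Egln1) and PHD3 (gene Egln3). These enzymes mark the hypoxia-inducible factors (HIF) for degradation when oxygen is present. The Cre driver is not given in the sources used here, and the range of cells that lost the enzymes is taken from the word endothelial alone. No label ties a library to an animal of its own, and p-values therefore speak only for the spread between these libraries.

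PGC-1 proteins do not bind DNA. They dock on nuclear receptors such as the ERRs and PPARs, and on NRF-1, and recruit enzymes that open chromatin, which raises genes of fatty acid oxidation, the citric acid cycle and the respiratory chain. NRF-1 and GABP act on nuclear genes for respiratory subunits and for TFAM, and TFAM packs and helps to transcribe mitochondrial DNA. In the heart this network is known for the switch after birth from glucose and lactate to fatty acids as the main fuel.

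Values are quantile-normalised FPKM (fragments per kilobase of transcript, scaled to the fragments mapped in the library), so levels can be set side by side between genes. Groups are given as means ± SD with n = 4, folds divide the knockout mean by the wild type mean, and log2 changes are knockout minus wild type on the log2(FPKM + 1) scale ± SE, which understates the change of low genes. A gene was called at a Benjamini-Hochberg adjusted p under 0.05 from limma, fitted over the 11390 genes that averaged 1 FPKM or more. All 10 regulators passed that filter. The sequencing depth behind the values is unknown, because quantile normalisation makes the distributions of the libraries almost identical.

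The libraries carry the RNA of heart, since all 10 cardiomyocyte markers checked were found, with a summed level of 29870 to 35940 FPKM in the wild type hearts and 27250 to 33480 FPKM in those of the knockout. Neither targeted gene had a lower mean in the knockout. Egln1 was at 52.9 ± 5.40 FPKM in the wild type hearts and 57.4 ± 4.73 FPKM in those of the knockout (limma adjusted p = 0.442), and Egln3 at 28.2 ± 8.83 and 40.8 ± 8.58 FPKM (adjusted p = 0.132). A gene-level value in a whole heart does not show a deleted exon in endothelial cells, and the genotype is not checked by these values. The airway genes of the lung marker list summed to 1240 FPKM in wild type replicate 4 and to at most 0.481 FPKM in the other 7 libraries. The Y chromosome gene Ddx3y was at 0.104 to 1.10 FPKM in wild type replicates 2 and 3 and knockout replicate 1, and at 13.98 to 22.2 FPKM in the other 5. The right atrial gene Bmp10 was at 0 to 1.12 FPKM in replicates 1 and 4 of both groups. In replicates 2 and 3 of both groups it was at 49.6 to 141 FPKM. Atrial markers summed to 2120 to 3250 FPKM in wild type hearts, and to 10480 and 5751 FPKM in knockout replicates 2 and 3. In knockout replicates 1 and 4 the sums were 2656 and 3272 FPKM. The share of atrial tissue in each library was not tested.

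Of the 10 regulators, 1 rose in the knockout hearts and 0 fell, while 9 did not pass the test. Esrrb was the one that rose. Over all tested genes, 12.2% were called, 6.15% higher and 6.01% lower, and a count of 1 in 10 is near the background. The median log2 change of the 10 genes was 0.30, against -0.01 over all tested genes, and 9 of the 10 differences were above 0, as were 48.3% of those of all tested genes. These counts are descriptions of a list chosen with earlier results of these data known. Before adjustment, 6 of the 10 had a limma p under 0.05, as did 29.6% of all tested genes. The values of 2 regulators, Esrrb and Ppard, did not overlap between the groups, with the knockout higher. Of all tested genes 20.7% did not overlap, 10.3% with the knockout higher and 10.4% with it lower.

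**Figure D1:**
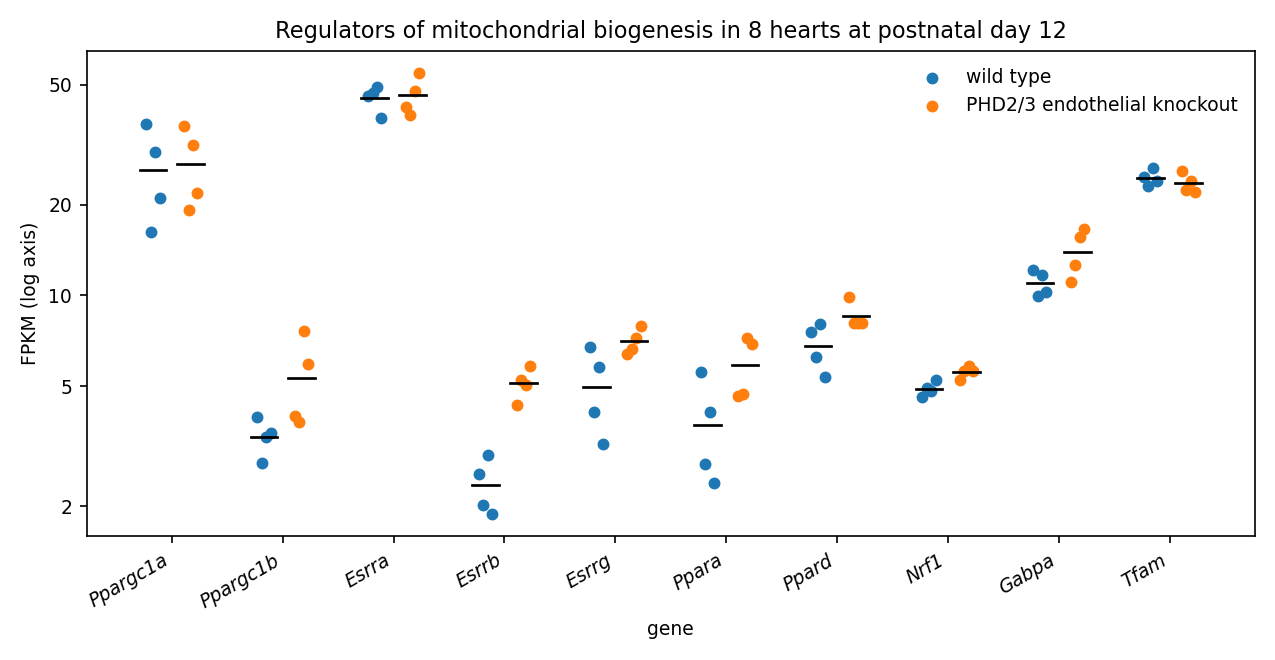
FPKM on a log axis of the 10 regulators; points are single libraries, blue for wild type and orange for PHD2/3 endothelial knockout, and each black line is the mean of 4 libraries. Esrrb has every knockout point above every wild type point, with means of 2.35 and 5.11 FPKM, while the 2 groups of Ppargc1a, Esrra and Tfam overlap.

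The order of the levels was nearly the same in both genotypes. Esrra was the highest at 45.2 ± 4.46 FPKM in the wild type hearts and 46.2 ± 6.72 FPKM in those of the knockout, followed by Ppargc1a, Tfam, Gabpa, Ppard and Esrrg in both. Ppargc1a and Tfam changed places from heart to heart in both groups and do not differ beyond their spread. In wild type hearts Esrrg, Nrf1, Ppara and Ppargc1b followed in that order, between means of 4.97 and 3.40 FPKM, with ranges that overlap from each gene to the next, and in knockout hearts Ppara stood above Nrf1. Esrrb was the lowest of the 10 in both groups. In the wild type it lay below Ppargc1b in 4 of 4 hearts, with overlapping ranges over the group, and in the knockout it lay below Ppargc1b in 2 of 4 hearts.

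The PGC-1 coactivators did not pass the test. Ppargc1a, the inducible coactivator (chromosome 5, 51454250 to 51567726 in mm10, minus strand), measured 37.1, 16.3, 30.02 and 21.0 FPKM across the wild type libraries, replicates 1 to 4, against 36.5, 19.2, 31.5 and 21.9 FPKM across the knockout libraries. Both groups span nearly the same range, with the highest heart 2.27 times the lowest in wild type and 1.90 times in knockout. The log2 change was 0.08 ± 0.27 (95% interval -0.53 to 0.69, limma adjusted p = 0.873), an interval wide enough to hold a change of either sign. With 1 heart left out the difference ran from -0.11 (without wild type replicate 2) to 0.27 (without wild type replicate 1).

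Ppargc1b, the coactivator known for setting basal mitochondrial content (chromosome 18, 61298136 to 61400431, minus strand), measured 3.96, 2.77, 3.38 and 3.49 FPKM across the wild type libraries against 3.99, 3.80, 7.60 and 5.94 FPKM across the knockout libraries. Knockout replicates 3 and 4 lay well above every wild type heart, knockout replicate 1 lay just above the highest of them, and knockout replicate 2 lay within their range. The mean was 1.57-fold higher in the knockout (log2 change 0.49 ± 0.18, 95% interval 0.08 to 0.90, adjusted p = 0.109). The ratio of Ppargc1a to Ppargc1b within a heart was 9.36, 5.88, 8.87 and 6.03 in the wild type and 9.16, 5.06, 4.14 and 3.68 in the knockout replicates. Its log2 difference was -0.51 (exact two-sided permutation p = 0.171, adjusted p = 0.200 over 3 ratios), and the groups overlap.

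Esrrb rose in the knockout hearts. ERR beta is an orphan nuclear receptor best known from pluripotent stem cells, placenta and inner ear, and it binds the same DNA element as ERR alpha and ERR gamma. The gene (chromosome 12, 86361117 to 86521628, plus strand) measured 2.56, 2.01, 2.97 and 1.88 FPKM across the wild type libraries, replicates 1 to 4, against 4.34, 5.25, 5.04 and 5.83 FPKM across the knockout libraries. Every knockout heart was above every wild type heart. The mean was 2.17-fold higher, from 2.35 ± 0.504 to 5.11 ± 0.616 FPKM (log2 change 0.87 ± 0.12, 95% interval 0.60 to 1.15, limma adjusted p = 0.00306). The exact two-sided permutation test gave p = 0.0286, which is the smallest that 4 against 4 samples allow. The call was kept in all 8 fits that left out 1 heart, with adjusted p up to 0.0159 and a log2 change of 0.80 to 0.96, which includes the fit without the library that held airway RNA. With the level of Ddx3y as a covariate adjusted p was 0.00652, and with that of the right atrial gene Bmp10 it was 0.00685.

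Single markers of several cell types passed the test as well, while most markers on their lists did not. Over all tested genes 12.2% were called and 20.7% did not overlap between the groups. The short marker lists were not tested against these shares. Of 6 macrophage markers (none at 0) 1 rose, the lysozyme gene Lyz2, from 41.2 ± 2.74 to 65.9 ± 9.07 FPKM (limma adjusted p = 0.00453). The macrophage list summed to 79.0 to 92.2 FPKM in the wild type and 105 to 122 FPKM in the knockout, but the 5 markers other than Lyz2 overlapped, at 41.4 to 49.6 against 42.2 to 53.3 FPKM. Of 6 fibroblast markers (none at 0) 2 fell, the matrix genes Dcn and Lum, and 5 of the 6 differences were below 0. The fibroblast sums did not overlap, at 698 to 802 and 431 to 604 FPKM. Without Dcn and Lum they overlapped, at 266 to 325 against 192 to 312 FPKM. For both lists, leaving out the markers called in these same data makes overlap likely, so the shorter sums do not show an unchanged cell type. Of 10 endothelial markers (none at 0) 1 rose and 2 fell, and 8 of the 10 differences were below 0. The receptor genes Tie1 and Tek fell from 38.5 to 24.8 FPKM (adjusted p = 0.00202) and from 22.4 to 14.8 FPKM (adjusted p = 0.00779) with no overlap, and Eng rose from 99.4 to 137 FPKM (adjusted p = 0.0469). The endothelial sums overlapped, at 653 to 748 and 641 to 693 FPKM. On the cardiomyocyte list, Mybpc3 rose from 555.7 to 806.5 FPKM (adjusted p = 0.00782) and Tnni3 fell from 3975 to 2884 FPKM (adjusted p = 0.0169). Neither overlapped, and the other 8 cardiomyocyte markers did not pass the test. Smooth muscle and pericyte markers had 1 of 6 that rose, Tagln. The part of these markers in the result for Esrrb was not tested. In a whole heart, fewer cells of a type and less RNA per cell cannot be told apart.

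The 3 tested genes whose profile over the 8 hearts lay closest to that of Esrrb were Pdk1, Rel and Clip4. Closeness was the root mean square difference between log2(FPKM + 1) profiles, each centred on its own mean, and was 0.0967, 0.109 and 0.111, where the spread of the Esrrb profile itself is 0.465. Pdk1, a kinase that switches off pyruvate dehydrogenase, measured 21.2, 17.02, 20.04 and 17.3 FPKM across the wild type libraries against 30.3, 34.2, 35.3 and 44.6 FPKM across the knockout libraries. Like Esrrb it was lowest in knockout replicate 1 and highest in knockout replicate 4 among the knockout hearts. The wild type hearts did not match in this way: Esrrb was highest in replicate 3 and lowest in replicate 4, and Pdk1 highest in replicate 1 and lowest in replicate 2. The measure also counts the difference between genotypes, for which both genes were called. For Ppargc1a the closest genes were the muscle kinase gene Alpk3 and the genes Golga1 and Ulbp1, at 0.234 to 0.247 with a profile spread of 0.404. By this measure no tested gene lay as close to it. The measure also counts differences in the size of the swings, so a gene with the same pattern but smaller swings would score as distant.

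RefSeq lists 2 start sites for Esrrb on GRCm38.p6, the build named mm10, and the 100 bases before each are shown because this is the regulator that rose.
Esrrb first start site, chr12:86361017-86361116, plus strand: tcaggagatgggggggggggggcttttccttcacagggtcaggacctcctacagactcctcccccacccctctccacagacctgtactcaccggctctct
Esrrb second start site, chr12:86421544-86421643, plus strand: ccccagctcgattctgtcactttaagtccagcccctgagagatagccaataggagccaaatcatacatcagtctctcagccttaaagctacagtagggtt
The 250 bases before each start site were searched on both strands for 4 cores: ACGTG of the hypoxia response element, AAGGTCA of the ERR element, GCATGCG of the NRF-1 site and CGGAAG of the ETS site that GABP binds. Neither Esrrb window holds any of them, which says only that these letters are not in these windows. The table does not separate transcripts, so the start site used in these hearts is not known.

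The other ERR genes did not pass the test. Esrra, the ERR most tied to respiratory genes (chromosome 19, 6910977 to 6921813, minus strand), measured 45.9, 47.1, 49.1 and 38.8 FPKM across the wild type libraries against 42.4, 39.7, 47.9 and 54.9 FPKM across the knockout libraries. The groups overlap over most of their range, and the log2 change was 0.02 ± 0.11 (95% interval -0.23 to 0.28, adjusted p = 0.908). Exons of Esrra overlap those of the protein-coding gene Trmt112 on the opposite strand, and the strandedness of the counting is not given in the sources used here: reads of the 2 genes may be mixed in this value.

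Esrrg, an ERR abundant in heart and other oxidative tissue (chromosome 1, 187608791 to 188214885, plus strand), measured 6.76, 4.11, 5.81 and 3.21 FPKM across the wild type libraries against 6.38, 6.64, 7.21 and 7.94 FPKM across the knockout libraries. The knockout hearts lay close together, with replicates 1 and 2 near the top of the wild type range and replicates 3 and 4 above it. The coefficient of variation was 9.83% in the knockout, against 32.3% in the wild type. The mean was 1.42-fold higher (log2 change 0.47 ± 0.18, 95% interval 0.07 to 0.86, adjusted p = 0.111). The ratio of Esrra to Esrrg was 9.70 ± 2.51 in wild type and 6.54 ± 0.400 in knockout hearts (log2 difference -0.53, exact two-sided permutation p = 0.0571 with n = 4 per group, adjusted p = 0.171 over 3 ratios). Knockout values of this ratio ran from 5.97 to 6.91 and wild type values from 6.78 to 12.1, which overlap through wild type replicate 1.

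**Figure D2:**
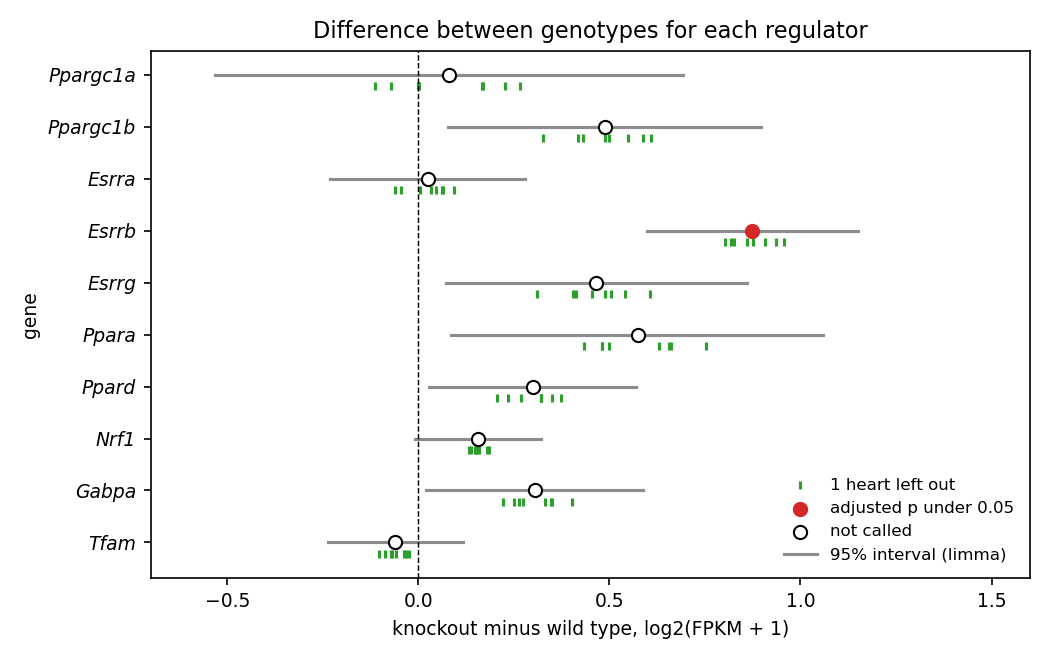
Knockout minus wild type difference of log2(FPKM + 1) for each regulator; circles are the fitted differences with 8 hearts, red where adjusted p is under 0.05, grey lines are 95% intervals from limma, and green ticks are the 8 differences with 1 heart left out. Esrrb stands at 0.87 with all ticks between 0.80 and 0.96, and the ticks of Ppargc1a and Esrra fall on both sides of 0.

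The PPAR genes had higher means in the knockout hearts but did not pass the test. Ppara, the receptor that drives fatty acid oxidation genes in heart and liver (chromosome 15, 85734983 to 85802819, plus strand), measured 5.59, 2.75, 4.10 and 2.39 FPKM across the wild type libraries against 4.64, 4.72, 7.22 and 6.91 FPKM across the knockout libraries. Only wild type replicate 1 reached the knockout range. The mean was 1.58-fold higher (log2 change 0.57 ± 0.22, 95% interval 0.09 to 1.06, adjusted p = 0.113). Without wild type replicate 1 the log2 change was 0.75 and adjusted p = 0.0447, and this was the one fit of 18 alternatives that called the gene.

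Ppard, a widely expressed receptor that also acts on fatty acid genes (chromosome 17, 28232700 to 28301474, plus strand), measured 7.57, 6.26, 8.02 and 5.37 FPKM across the wild type libraries against 9.87, 8.08, 8.12 and 8.10 FPKM across the knockout libraries. The groups do not overlap, but the highest wild type and lowest knockout heart lie next to each other. The mean was 1.26-fold higher (log2 change 0.30 ± 0.12, 95% interval 0.03 to 0.57, adjusted p = 0.132), and the exact two-sided permutation p was 0.0286. The ratio of Ppara to Ppard was 0.534 ± 0.140 in wild type and 0.699 ± 0.205 in knockout hearts (log2 difference 0.37, exact two-sided permutation p = 0.200 with n = 4 per group, adjusted p = 0.200 over 3 ratios).

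The nuclear respiratory factors and TFAM did not pass the test either. Nrf1, here nuclear respiratory factor 1 and not the stress factor of similar name (chromosome 6, 30047988 to 30153458, plus strand), measured 4.604, 4.94, 4.82 and 5.25 FPKM across the wild type libraries against 5.24, 5.60, 5.83 and 5.63 FPKM across the knockout libraries. Its hearts varied little, and the groups touch at wild type replicate 4 and knockout replicate 1. The log2 change was 0.16 ± 0.07 (95% interval -0.01 to 0.32, adjusted p = 0.190).

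Gabpa, the DNA-binding subunit of GABP (chromosome 16, 84834925 to 84863779, plus strand), measured 12.2, 9.99, 11.7 and 10.2 FPKM across the wild type libraries against 11.1, 12.6, 15.6 and 16.6 FPKM across the knockout libraries. Only knockout replicate 1 lay within the wild type range. The log2 change was 0.31 ± 0.13 (95% interval 0.02 to 0.59, adjusted p = 0.143), and without knockout replicate 1 it was 0.40 with adjusted p = 0.0431, the one fit of 19 alternatives that called the gene. Exons of Gabpa overlap those of the ATP synthase gene Atp5j on the opposite strand, so reads of the 2 genes may be mixed.

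Tfam (chromosome 10, 71225464 to 71238280, minus strand) measured 24.7, 23.1, 26.5 and 24.0 FPKM across the wild type libraries against 25.8, 22.4, 24.0 and 22.1 FPKM across the knockout libraries. It was the only regulator with a lower mean in the knockout. The groups overlap, with knockout replicates 2 and 4 below every wild type heart. The log2 change was -0.06 ± 0.08 (95% interval -0.24 to 0.12, adjusted p = 0.650).

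The same 4 cores were counted over all promoters searched, those of Esrrb included, from RefSeq sequence alone. No promoter of Ppargc1b was among them, so that gene is not covered. Of 14 promoters of 9 regulators, 4 hold the NRF-1 core within 250 bases before the start (in Esrra, Esrrg, Ppara and Gabpa), 3 the ETS core (in Ppard, Gabpa and Tfam), 2 the hypoxia core (in Ppargc1a and Ppard) and 0 the ERR core. Among all 32851 promoter windows of the same length, 3.02% hold the NRF-1 core, 13.6% the ETS core, 16.6% the hypoxia core and 4.08% the ERR core. The 100 bases before the start are shown for 5 of the regulators with a core there, to show how close to the start it lies, with the core letters in capitals.
Ppargc1a, chr5:51567726-51567825, minus strand, hypoxia core: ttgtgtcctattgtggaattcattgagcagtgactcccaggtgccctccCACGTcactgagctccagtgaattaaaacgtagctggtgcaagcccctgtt
Esrra, chr19:6921809-6921908, minus strand, NRF-1 core: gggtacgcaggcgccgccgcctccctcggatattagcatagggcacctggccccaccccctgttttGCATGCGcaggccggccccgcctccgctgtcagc
Ppara, chr15:85735676-85735775, plus strand, NRF-1 core on both strands: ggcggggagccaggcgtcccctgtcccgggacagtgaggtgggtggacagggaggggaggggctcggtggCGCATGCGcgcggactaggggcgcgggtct
Gabpa, chr16:84835024-84835123, plus strand, ETS core and then NRF-1 core on both strands: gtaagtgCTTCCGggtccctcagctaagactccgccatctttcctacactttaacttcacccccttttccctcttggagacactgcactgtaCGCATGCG
Tfam, chr10:71238045-71238144, minus strand, ETS core: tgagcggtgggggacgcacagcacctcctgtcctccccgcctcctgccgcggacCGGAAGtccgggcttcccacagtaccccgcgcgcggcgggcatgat
The NRF-1 core begins 34 bases before the start in Esrra, and the ETS core 46 bases before it in Tfam. The overlapping NRF-1 cores on the 2 strands in Ppara and Gabpa form 1 palindrome. A match is a run of letters and not a bound site. None of these 5 genes passed the test between genotypes.

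The hearts of 1 genotype differed among themselves, and several regulators followed the same hearts. In the wild type, replicates 1 and 3 were both above replicates 2 and 4 in 7 of the 10 genes (Ppargc1a, Esrrb, Esrrg, Ppara, Ppard, Gabpa and Tfam), an order that 26.7% of all tested genes also show. In the knockout, replicates 3 and 4 were both above 1 and 2 in 6 of 10 (Ppargc1b, Esrra, Esrrg, Ppara, Nrf1 and Gabpa), as in 24.7% of all tested genes. These orders were chosen for description after the values were seen. Of 10 cardiomyocyte markers, 5 (Ryr2, Pln, Ttn, Mybpc3 and Actn2) had replicates 1 and 3 above 2 and 4 as well, and 3 (Tnnt2, Myl2 and Tnnc1) had the opposite order. The summed level, in which Myl2 and Tnnt2 weigh most, was 30920 and 29870 FPKM in replicates 1 and 3 and 35110 and 35940 FPKM in replicates 2 and 4. The part of cardiomyocyte RNA in the pattern was not tested. Of the 10 regulators Ppara varied most within the wild type, with a coefficient of variation of 39.2%, followed by Ppargc1a at 35.5%, while Nrf1 and Tfam varied least, at 5.51% and 5.87%.

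**Figure D3:**
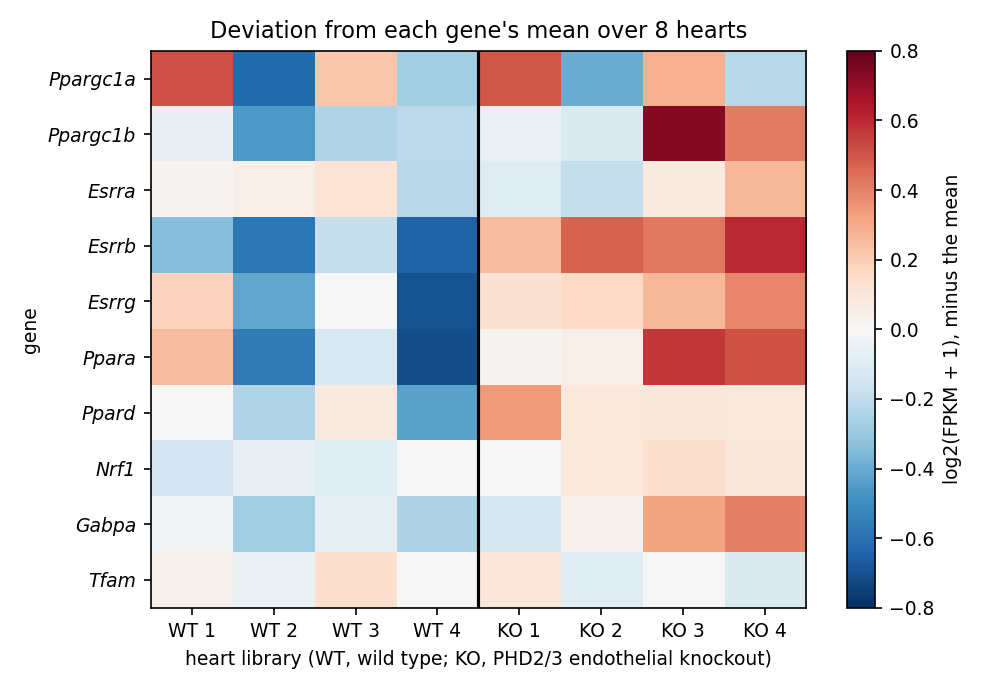
Deviation of each heart from the gene's mean over 8 hearts in log2(FPKM + 1), in colour (red above, blue below), with genes in rows and hearts in columns, WT for wild type and KO for PHD2/3 endothelial knockout. The row of Esrrb is blue in all 4 wild type hearts and red in all 4 knockout hearts, and the row of Ppargc1a is red in replicates 1 and 3 of both groups.

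The genes around the regulators were read in 8 lists with 162 genes, of which 159 were tested. Of these, 12 rose and 12 fell, while 135 did not pass the test, so 15.1% were called against 12.2% of all tested genes, and their median log2 change was 0.02. By direction, 6.15% of all tested genes were called higher and 6.01% lower, which is the background for the counts of each list below. No list was tested against it. The count that rose was 4 to 16 and the count that fell 5 to 13 with 1 heart left out, lowest for both without wild type replicate 2. The count that rose was at most 7 in all omissions except those of wild type replicate 1 (10) and knockout replicate 1 (16), and the count that fell was at most 7 without wild type replicates 1, 2 or 4 or knockout replicate 2. Of the 24 called genes, 9 kept the call in all 8 omissions: Dguok, Pparg, Stk11, Cpt2, Fh1, Phb, Pdk1, Bnip3 and Ndufa4l2. With the replicate number as a block in the fit, Dguok, Fh1 and Phb lost it (limma adjusted p = 0.0568, 0.0619 and 0.0668).

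Among HIF-responsive genes acting on mitochondria, 3 of 9 rose and 0 fell, while 6 did not pass the test, with a median log2 change of 0.20. Ndufa4l2, a HIF target that lowers complex I activity, rose from a mean of 24.3 ± 3.90 FPKM to 49.3 ± 4.83 FPKM (log2 change of 0.997 ± 0.12, adjusted p = 0.00148). Bnip3, a receptor for the removal of mitochondria by autophagy, rose from a mean of 56.3 ± 5.13 FPKM to 113 ± 26.8 FPKM (log2 change of 0.97 ± 0.15, adjusted p = 0.00510). Pdk1 rose 1.91-fold (log2 change 0.89 ± 0.12, adjusted p = 0.00273). Bnip3l, a relative of Bnip3, was at 65.2 ± 8.83 and 80.7 ± 1.64 FPKM (adjusted p = 0.0682).

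Among partners, coactivators and corepressors, 0 of 21 rose and 1 fell, while 20 did not pass the test, with a median log2 change of 0.00. The member that fell was Pparg, the third PPAR, best known for adipocytes and present in endothelium and macrophages. It measured 8.79, 7.77, 6.85 and 9.28 FPKM across the wild type libraries against 3.79, 4.97, 5.21 and 5.30 FPKM across the knockout libraries, with no overlap (log2 change -0.66 ± 0.12, adjusted p = 0.00892). The coactivator genes Ncoa1 and Ncoa2 were 1.35-fold and 1.28-fold higher in the knockout (adjusted p = 0.0579 and 0.109), and the acetyltransferase gene Kat2a was at 7.48 and 6.26 FPKM (adjusted p = 0.125). Adipocyte markers (7 of 7 found, none at 0 in every heart) summed to 29.7 to 61.3 FPKM in the wild type hearts and 34.8 to 82.8 FPKM in those of the knockout, which overlap. Of the macrophage markers, given above, Lyz2 alone passed the test. Of the 10 endothelial markers, also given above, Tie1 and Tek fell and Eng rose. For 8 of them the difference was below 0, and the endothelial sums overlapped. The part of these cell types in the fall of Pparg was not tested.

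Among upstream kinases, deacetylases and transcription factors, 1 of 26 rose and 1 fell, while 24 did not pass the test, with a median log2 change of 0.08. Stk11, which encodes LKB1, the kinase that activates AMPK, fell from a mean of 39.6 ± 1.27 FPKM to 29.2 ± 3.12 FPKM (log2 change of -0.43 ± 0.08, adjusted p = 0.0119). Camk2d, the main cardiac calcium and calmodulin-dependent kinase, rose 1.54-fold (adjusted p = 0.0378), a call that among the 8 omissions held only for those of wild type replicate 1 and knockout replicate 1. The AMPK subunit gene Prkaa2 was at 13.3 ± 2.52 and 18.8 ± 3.47 FPKM (adjusted p = 0.0750) and Myc at 2.43 ± 0.867 and 3.78 ± 0.801 FPKM (adjusted p = 0.0919).

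Of the mitochondrial DNA transcription and replication machinery, 0 of 18 rose and 2 fell, while 16 did not pass the test, with a median log2 change of -0.05. Dguok, a kinase that supplies deoxyguanosine phosphates inside mitochondria, fell from a mean of 16.6 ± 1.57 FPKM to 11.8 ± 0.910 FPKM (log2 change of -0.45 ± 0.09, adjusted p = 0.0128). Polrmt, the mitochondrial RNA polymerase, fell from a mean of 15.4 ± 2.90 FPKM to 9.83 ± 1.998 FPKM (log2 change of -0.60 ± 0.16, adjusted p = 0.0372), and the groups overlap. The call held in 2 of 8 omissions, those of wild type replicate 3 and knockout replicate 1. Ssbp1, which coats single-stranded mitochondrial DNA, and the polymerase Polg were 0.879 and 0.821 of their wild type means (adjusted p = 0.101 and 0.107).

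**Figure D4:**
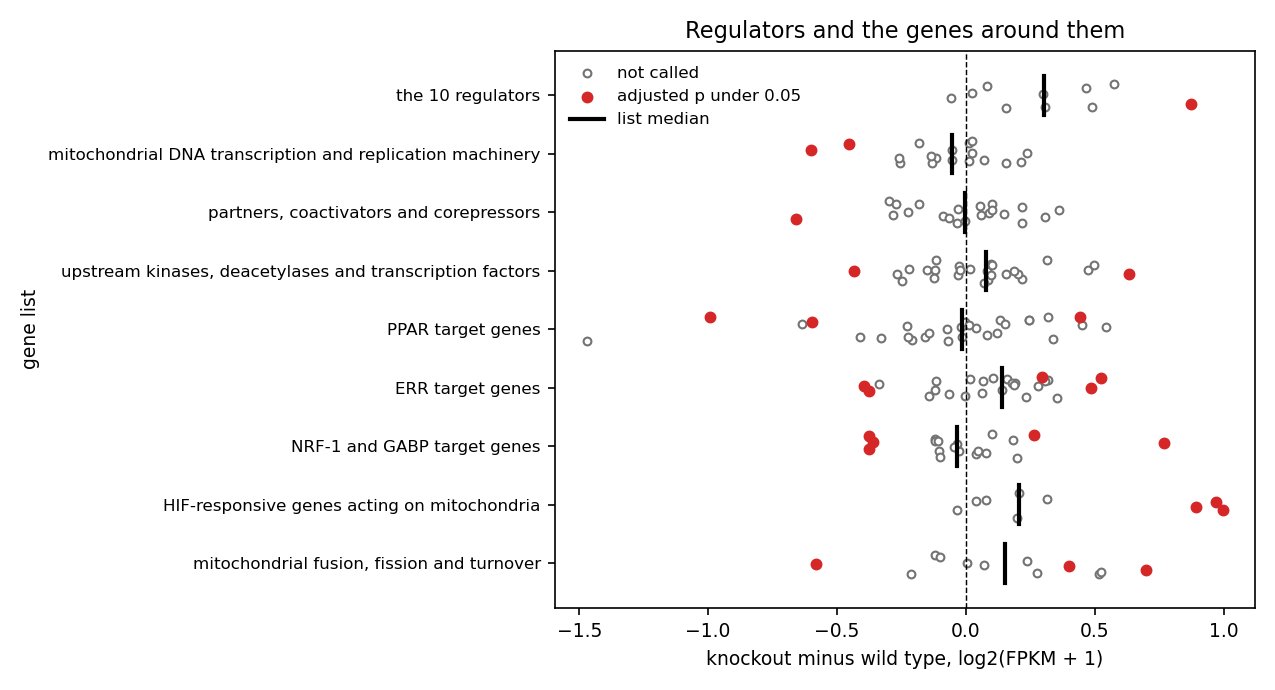
Knockout minus wild type difference of log2(FPKM + 1) for each tested gene of the 10 regulators and of 8 lists of partners and targets; each circle is 1 gene, red where adjusted p is under 0.05, and black bars are list medians. The medians of the 8 lists lie between -0.05 and 0.20, and the called genes lie on both sides of 0 in 5 of the lists.

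Among PPAR target genes, 1 of 29 rose and 2 fell, while 26 did not pass the test, with a median log2 change of -0.02. Cpt2, the inner membrane carnitine palmitoyltransferase, fell from a mean of 97.6 ± 2.84 FPKM to 64.4 ± 4.88 FPKM with no overlap (log2 change of -0.60 ± 0.07, adjusted p = 0.00184). Ucp2, an uncoupling protein of the inner membrane that macrophages also express, fell from a mean of 284 ± 35.1 FPKM to 152 ± 73.9 FPKM (log2 change of -0.99 ± 0.27, adjusted p = 0.0437), a call that held in 1 of 8 omissions, that of knockout replicate 3. Ech1, an isomerase of fatty acid oxidation, was at 857 ± 102 and 564 ± 152 FPKM (adjusted p = 0.0517).

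Among ERR target genes, 3 of 25 rose and 2 fell, while 20 did not pass the test, with a median log2 change of 0.14. Among the members that rose were Atp5a1, the alpha subunit of ATP synthase (1656 to 2028 FPKM, adjusted p = 0.0484), and Ogdh of the oxoglutarate dehydrogenase complex (336 to 463 FPKM, adjusted p = 0.0496), the last named after its values were seen. Both calls were lost in 7 of 8 omissions and held on omitting wild type replicate 1. Fh1, fumarase, fell from a mean of 342 ± 11.5 FPKM to 263 ± 19.6 FPKM (log2 change of -0.38 ± 0.07, adjusted p = 0.0116). Cox7a1, the heart and muscle form of a cytochrome oxidase subunit, fell from a mean of 1610 ± 103 FPKM to 1226 ± 127 FPKM (log2 change of -0.40 ± 0.09, adjusted p = 0.0196), a call lost without wild type replicate 2, knockout replicate 2 or knockout replicate 3.

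Among NRF-1 and GABP target genes, 2 of 19 rose and 3 fell, while 14 did not pass the test, with a median log2 change of -0.03. Alas1, the first enzyme of heme synthesis, rose from a mean of 117 ± 18.2 FPKM to 202 ± 51.6 FPKM (log2 change of 0.77 ± 0.18, adjusted p = 0.0229), a call lost without either wild type replicate 2 or 4, or knockout replicate 2. Cox17, a copper chaperone for cytochrome oxidase, fell to 0.768 of its wild type mean (adjusted p = 0.0162, lost without wild type replicate 2). The subunit Cox6c fell to the same share (adjusted p = 0.0227, kept without wild type replicate 3 or knockout replicate 1 or 4 and lost in the other 5 omissions). The import factor Tomm34 fell to 0.756 of its wild type mean (adjusted p = 0.0361, kept in 2 of 8 omissions, those of knockout replicates 1 and 4), and the import receptor Tomm70a, named after its values were seen, rose from 25.6 to 30.9 FPKM (adjusted p = 0.0440, lost in all 8 omissions). Small respiratory subunit genes such as Cox6c have processed copies elsewhere in the genome, and how their reads were shared out is not given in the sources used here, which makes their values uncertain.

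Among genes of mitochondrial fusion, fission and turnover, 2 of 12 rose and 1 fell, while 9 did not pass the test, with a median log2 change of 0.15. Phb, prohibitin of the inner membrane, rose 1.32-fold (log2 change 0.40 ± 0.08, adjusted p = 0.0109). Opa1, which fuses inner membranes, rose from 25.2 ± 4.95 to 41.4 ± 7.52 FPKM (adjusted p = 0.0235), a call lost without either wild type replicate 2 or 4, or knockout replicate 3. Pink1, a kinase that marks damaged mitochondria, fell from 141 ± 7.94 to 95.6 ± 24.4 FPKM (adjusted p = 0.0363), a call kept in 1 of 8 omissions, that of knockout replicate 4. The fusion gene Mfn1 was at 70.6 ± 9.22 and 102 ± 21.2 FPKM (adjusted p = 0.0523).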

How the data were processed

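Values in the table are FPKM deposited by the authors, 1 column per library. Reads were aligned with TopHat2 and quantified with Cufflinks on mm10, per the submitters' processing notes, with no versions. The unit is read from Cufflinks and from values that are not whole and start at 0. The authors' columns are quantile normalised: the 39 highest ranks are identical in all 8, so depth and counting error are unknown. A count test was not run. The annotation, and whether strand was used, is not given in the sources used here.

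The 2 genotypes were compared by limma 3.58.1 in R 4.3.3 (lmFit, eBayes with trend and robust) on log2(FPKM + 1), over genes averaging 1 FPKM or more. Adjusted p-values are Benjamini-Hochberg over all 11390 genes, also where a sentence does not name limma. Ratios within a heart were compared by an exact permutation test over 70 splits (scipy 1.17.1, Python 3.11.15). In simulated data of 11390 genes for this comparison 64.2% of 67 genes set to a 1.5-fold change were found, 92.5% of 67 set to 2-fold, and 97.0% of 66 set to 4-fold, with 7 of 176 calls wrong. Only those genes were changed, while 12.2% of tested genes were called in the data. Folds were set on FPKM + 1, and noise was drawn for each gene on its own, without patterns that hearts share. These shares therefore hold for the simulated setting and may differ in the data. Coordinates come from GENCODE M21 on mm10 and promoters from RefSeq on GRCm38.p6.

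The members, gene lists and tests were chosen with earlier results of these data known. The genes named are the 10 regulators, Egln1 and Egln3, up to 4 genes of each list with the smallest p, and the 3 nearest profiles of Esrrb and Ppargc1a. Alternatives changed the pseudocount, filter, scaling, variance model, weights, threshold, block and covariates, or left out each heart. Some genes that the rule selects are counted in their lists but not reported here by name.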

Additional observations from a re-analysis of the deposited data

Results flagged for a closer look

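Ppard in knockout replicate 1 stood apart from the other knockout hearts. It was at 9.87 FPKM there, while the other 3 knockout hearts lay between 8.08 and 8.12 FPKM, a gap that takes up 0.980 of the whole range and is above Dixon's 95% limit for 4 samples. Of 20 groups of 4 hearts checked this way, 1 was marked, and chance alone marks about 1 in 20. Without knockout replicate 1 the log2 change of Ppard was 0.24 (limma adjusted p = 0.219), against 0.30 with all 8 hearts.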

How the results depend on the processing

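Esrrb was called under 17 of the 18 alternatives that could test it. The exception was a minimum change of 1.5-fold (log2 change 0.87, adjusted p = 1), where the number of regulators called was 0 and the pathway lists had 0 genes called higher and 0 lower. With a filter of at least 5 FPKM, Esrrb, Ppara and Ppargc1b were not tested, and 0 regulators were called. With 1 heart left out, 1 to 2 regulators were called higher, the second being Ppara (log2 change 0.43 to 0.75) or Gabpa (0.22 to 0.40). Pathway genes called higher numbered 4 to 16 and those called lower 5 to 13 in these fits. Pathway genes called higher were 7 with no filter on low values and 6 with either the Ddx3y or the Bmp10 covariate. Over all alternatives Ppargc1a ran from -0.11 to 0.27 and Esrra from -0.09 to 0.09 without a call. No ratio was called with either other pseudocount (exact permutation adjusted p from 0.171 to 0.200). With 4 against 4 hearts the smallest p this test allows is 0.0286. After adjustment over the ratios, a ratio at that floor could be called only if another ratio reached it too. The lack of a call, here and in the main test, therefore does not show that a ratio is unchanged. With 1 heart left out, or with hearts paired by number, the smallest p the exact test allows is 0.0571 or 0.125, so those settings cannot call a ratio and say nothing of its stability.

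Over 11390 genes, same-numbered hearts did not deviate together, with correlations of -0.23, 0.01, 0.10 and -0.10. Single genes did follow the number: Ppargc1a had the same order of replicates in both groups, and Bmp10 was low in replicates 1 and 4 of both. These genes were picked after their values were seen. Whether the numbers pair the hearts was not tested. With the replicate block, Esrrb kept its call (adjusted p = 0.0253), and 3 pathway genes were called higher and 5 lower. Over all tested genes 1385 were called with all 8 hearts, 613 with the replicate block, 37 at a minimum change of 1.5-fold, and between 574 and 1819 with 1 heart left out, the fewest on omitting wild type replicate 2 and the most on omitting knockout replicate 1. The cause of these differences was not tested. Depth is unknown, and 4 hearts per group limit the precision.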

Other observations

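The genes named here were chosen after their values were seen. Pdk4, a fasting-responsive kinase that PPARs induce, was at 116 to 419 FPKM in wild type and 149 to 260 FPKM in knockout hearts (limma adjusted p = 0.506). Cpt1b, the muscle form of the entry enzyme of fatty acid oxidation, was at 224 ± 10.7 and 224 ± 18.6 FPKM (log2 change 0.00 ± 0.08, adjusted p = 0.977). Fgf21 was listed at 0 in 6 of the 8 hearts.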
